A study of Bos taurus with 8 samples.

Results

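The genes described here code for the products by which the ruminant trophoblast, the outer layer of the embryo that becomes placenta, is best known: PLAC8A, SSLP1, 4 trophoblast Kunitz domain proteins (TKDP1, TKDP2, TKDP3 and TKDP4), the interferon tau gene IFNT2, the placental lactogen gene CSH2 and the prolactin-related protein gene PRP1. They were chosen by name, with their signals already known in the cultures compared, stem-like lines grown from bovine embryos (eSLCs) and cultured somatic cells (SCs), and the probes are those whose RefSeq accession maps to them. Of these 9 genes, 7 had named probes, 23 in all among the 43653 probes of the array, and all 7 were among the 10958 genes tested of 12603 genes named. TKDP3 had no entry in the RefSeq table used for naming, and no probe carried the accession of IFNT2, so neither was measured here.

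RNA of 8 samples from HanWoo, the Korean native cattle, was labelled with 1 dye and hybridized to Agilent bovine oligo microarrays, 1 array per sample. The lines I2 (passage 35) and I9 (passage 30) came from in vitro produced (IVP) blastocysts, N2 (passage 36) and N7 (passage 30) from blastocysts made by nuclear transfer (NT) of an ear skin cell, and P1 (passage 31) and P4 (passage 36) from parthenogenetic (PA) blastocysts, which have no paternal genome. All 6 eSLC lines were kept in 3i medium, in which PD184352 inhibits MEK, SU5402 inhibits FGF receptors and CHIR99021 inhibits GSK3, on murine STO feeder cells inactivated with mitomycin C, and each line goes back to 1 embryo. The SCs, at passages 5 and 10 (SC P5 and SC P10), grew in DMEM with serum, so that cell type and culture cannot be told apart. Nothing in the sources says that the SC arrays came from separate cultures, and p-values then measure only the spread between these samples.

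Values are normalized signals, that is background-subtracted intensities scaled so that the 75th percentile of each array is 1000. The lowest signal that counts as measured on every array, 13.3, was used as a common floor. The 75th percentile was lowest in N2, at 1192 scanner units, and highest in N7, at 4092. Between 71.2% and 76.7% of probes were well above background, and no spot was saturated. Slide 1 held I2, I9, N7 and SC P5, and the other arrays were on slide 2. The signal of one gene cannot be set against that of another, because probes differ in brightness, and members are compared between arrays within a probe. The genes were picked for their level in eSLCs against SCs, and that contrast is therefore given as a description without a test. In bulk RNA, fewer cells of a type and less RNA per cell cannot be told apart.

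In ruminants the trophoblast elongates before it attaches to the uterus, and its mononucleate cells secrete interferon tau, the signal by which the mother recognizes the pregnancy. Interferon tau acts through the type I interferon receptor on the uterine lining and keeps the corpus luteum active. The Kunitz domain proteins, related to serine protease inhibitors, are secreted in the same weeks. Later, binucleate trophoblast cells make placental lactogen and the prolactin-related proteins, relatives of pituitary prolactin, and deliver them to the mother.

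PLAC8A was high in every eSLC line and near background in SCs by all of its probes, and SSLP1 was so by 1 of its 3 probes. PLAC8A belongs to the family of placenta specific 8, a small cysteine-rich protein better known inside cells than as a secreted product. Its brightest probe (A_73_P400741) had a normalized signal of 160583 in I2, 136760 in I9, 191903 in N2, 61675 in N7, 251345 in P1 and 161044 in P4. The SCs read 21.6 at passage 5 and 18.9 at passage 10. Every eSLC array lay above both SC arrays, with N7 lowest and P1 highest of the lines. The mean log2 signal was 12.84 higher in eSLCs than in SCs, 12.32 higher on slide 1 and 13.36 higher on slide 2. The other 3 probes of PLAC8A gave the same picture, between 51863 in N7 and 212763 in P1 over the eSLC lines and at most 27.9 in SCs. P1 was the highest line and N7 the lowest by all 4 probes. PLAC8B, the neighbouring gene of PLAC8A in the ARS-UCD2.0 assembly, also differed, with signals of 302 in N7 to 2008 in I2 against 16.1 and 17.4 in SCs. Limma called it higher in eSLCs (adjusted p = 0.000387), with a log2 difference of 5.85 and a standard error of 0.51, where a call needs an adjusted p under 0.05 and a difference of at least 2-fold. N7 was the lowest line for both genes, and whether the PLAC8B probe also binds PLAC8A transcripts was not tested.

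SSLP1 codes for a small secreted protein of the Ly-6 type. Its brightest probe (A_73_P035871) read 52466 in I2, 130490 in I9, 168693 in N2, 22846 in N7, 100232 in P1 and 95610 in P4, and 18.7 and 18.8 in SCs. The eSLC and SC arrays did not overlap on this probe, and their means were 12.05 apart on the log2 scale. The other 2 SSLP1 probes gave another result. The second read 2371 in N7 to 7887 in N2, with 4236 in SC P5 and 5141 in SC P10 inside that range, a mean difference of 0.04. The dimmest read 443 in N7 to 3109 in N2, with 1209 and 1202 in SCs, a mean difference of 0.12. The probes of SSLP1 therefore disagreed on eSLCs against SCs, and averaging the 3 reduced the difference to 4.07. Among the eSLC lines they did not disagree at the extremes, since N2 was highest and N7 lowest by each. The probe sequences were not used here, and which transcripts the 2 dimmer probes bind was not tested.

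TKDP1, the first of the Kunitz domain genes, read 186537 in I2, 194776 in I9, 327315 in N2, 113494 in N7, 287675 in P1 and 253511 in P4 by its brightest probe (A_73_110685). Both SC arrays were at the floor, although SC P5 was still well above its local background. The mean signal of eSLCs was at least 16180-fold higher than the floor at which the SCs stood. The other probes gave at least 14562-fold and at least 9973-fold, with both SC arrays not well above background. By its brightest probe TKDP1 had the narrowest spread of the 7 genes among the lines, 2.88-fold from N7 to N2, although its dimmest probe spread 7.15-fold.

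**Figure D1:**
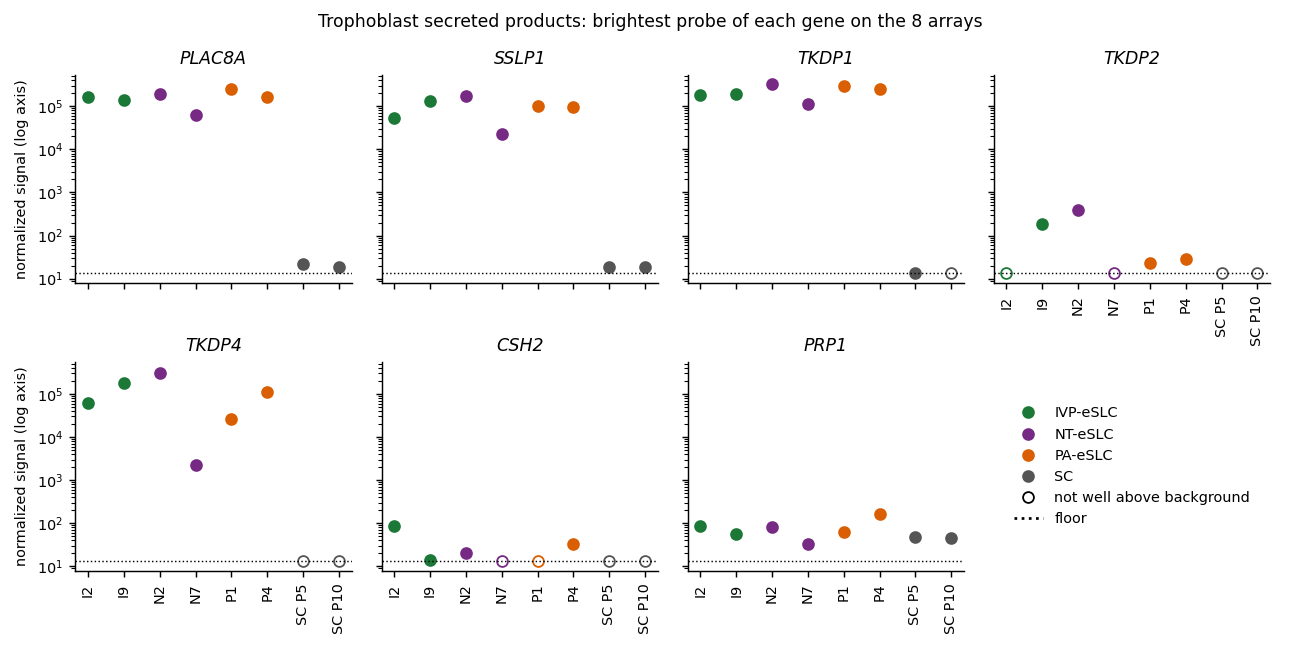
Normalized signal (log axis, 75th percentile of each array = 1000) of the brightest probe of the 7 measured genes on the 8 arrays, coloured by origin, with open circles where the probe was not well above background and a dotted line at the floor of 13.3. In the panels of PLAC8A, SSLP1, TKDP1 and TKDP4 all 6 eSLC lines lie above both SC arrays, and in those of TKDP2, CSH2 and PRP1 they overlap. Heights are not comparable between panels.

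TKDP4 was the gene whose level differed most among the lines. Its brightest probe (A_73_116051) read 62911 in I2, 177638 in I9, 307800 in N2, 2224 in N7, 26294 in P1 and 110056 in P4, and was not well above background in either SC array. The lines lay 138-fold apart, a log2 range of 7.11 that was wider than that of 99.78% of the genes tested. Without N7 the lines were 11.7-fold apart. The order of the lines, N2, I9, P4, I2, P1 and N7 from high to low, was the same by all 4 probes. The 2 dimmest probes fell to 205 and 134 in N7 against 42468 and 35453 in N2. The second brightest was 81.7 and 66.7 in SCs, and was the one TKDP4 probe well above background in SCs. It had the narrowest spread of the 4 among the lines, 14.8-fold, from 6606 in N7 to 97505 in N2. Over all eSLC lines the mean signal was at least 3990-fold higher than the floor, where the SCs stood, by the brightest probe and 378-fold that of SCs by the one with measured SC signals.

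TKDP2, with a single probe, was at the floor in I2 and N7 and in both SC arrays. It read 185 in I9, 398 in N2, 23.2 in P1 and 28.6 in P4. I9 and N2, which come from different origins and lie on different slides, were the only lines above 30. The means of eSLCs and SCs differed by 1.77 on the log2 scale, and their arrays overlapped at the floor. This difference was 0.95 without N2 and 2.59 without N7. In the ARS-UCD2.0 assembly TKDP1, TKDP4 and TKDP2 follow each other directly. I9 and N2 were the highest lines for TKDP2 and TKDP4 alike, and N2 but not I9 was among the 2 highest for TKDP1 by its 2 brighter probes. The dimmest TKDP1 probe gave the same order of the lines as TKDP4. Whether probes of these Kunitz domain genes bind transcripts of each other was not tested, so they may not be separate observations. SPINT1 and SPINT2, membrane-bound Kunitz inhibitors found in epithelia, were called higher in eSLCs, by 9.04 (adjusted p = 1.23e-05, limma) and 5.55 (adjusted p = 6.08e-05) on the log2 scale, and varied 1.51-fold and 2.27-fold among the lines. Of the 24 relatives of these families listed, 14 had a probe and 11 were tested. Of these, 4 (PLAC8B, SPINT1, SPINT2 and PRL) were called higher in eSLCs than in SCs and 0 lower, where 19.7% of all genes tested were called higher and 15.7% lower.

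The rule found no probe of IFNT2, and the interferon values here are those of relatives. The interferon tau genes are near-identical copies of each other and relatives of interferon omega, so that a probe named for one can bind transcripts of another. The brightest IFNT3 probe read 1170 in I2, 1198 in I9, 552 in N2, 61498 in N7, 146 in P1 and 9150 in P4, and 112 and 59.6 in SCs. IFNW1, an interferon omega gene, read 101, 99.4, 40.5, 7760, 13.3 and 894 in the same lines, and was at the floor in SCs. For both genes N7 was the highest line, P4 the second and P1 the lowest. N7 was thus the line with the lowest TKDP1, TKDP4, PLAC8A and SSLP1 and the highest interferon signals. All 6 eSLC arrays were above both SC arrays for IFNT3, and the mean log2 difference of 4.61, with a standard error of 2.15, was not called by limma (adjusted p = 0.128). For IFNW1 the difference of 3.78 was not called either (adjusted p = 0.222), and P1 was at the floor with the SCs.

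Of the genes that respond to interferon, 2 well-known ones were set beside IFNT3. ISG15, a ubiquitin-like protein induced by type I interferon, read 66.9 in I2, 672 in I9, 1418 in N2, 800 in N7, 14.5 in P1 and 847 in P4, with 275 and 228 in SCs. MX1, an antiviral GTPase, read 321, 2809, 3958, 1569, 43.2 and 1667 in the same lines, with 1250 and 1246 in SCs. P1, the line with the lowest IFNT3, was also the lowest for ISG15 and MX1, but the highest was N2 and not N7. Among the lines IRF1, in contrast, was highest in N7, at 87.1, and at the floor in I2 and P1. Of 21 interferon-stimulated genes listed, 11 were tested, 2 were called higher in eSLCs than in SCs and 2 lower, and 7 were not called. These shares are close to the 19.7% higher and 15.7% lower over all genes tested. USP18, which removes ISG15 from proteins, had a log2 difference of 2.23 (adjusted p = 0.0344, limma) and the transcription factor IRF7 was 2.02 higher (adjusted p = 0.00289). Among the lines USP18 was lowest in P1, at 213, whereas IRF7 was highest in P1, at 19242. IRF1, a transcription factor of the interferon response, fell by 7.77 (adjusted p = 0.000184). IFIT3 was 1.45 lower (adjusted p = 0.0395), a difference set by the floor, at which every eSLC line stood. The median difference of the list was 0.22 against 0.23 over all genes tested.

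The prolactin family genes gave low signals. CSH2, placental lactogen, had 6 probes, and both SC arrays were at the floor and not well above background by all of them. Its brightest probe (A_73_112064) read 88.5 in I2, 20.3 in N2 and 32.7 in P4, was just above the floor in I9 and was at the floor in N7 and P1. I2, P4 and N2 were the 3 highest lines by 4 of the 6 probes. The next probe was above the floor in I2 and P4 alone, at 25.0 and 17.4, and the dimmest was above it in P1 alone, at 13.4. The mean difference between eSLCs and SCs was 0.79 on the log2 scale by the brightest probe, and by the same probe 0.34 without I2 and 1.23 without I9.

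PRP1 was measured on all 8 arrays by its brightest probe (A_73_P062856), at 84.5 in I2, 55.5 in I9, 82.0 in N2, 33.9 in N7, 61.7 in P1, 169 in P4, 48.8 in SC P5 and 44.4 in SC P10. The SC arrays lay between N7 and I9, so that eSLCs and SCs overlapped, with a mean difference of 0.62 on the log2 scale, 0.41 without N2 and 0.38 without P4. The other PRP1 probe was at the floor in SCs and in I9, N7 and P1. It read 108 in I2, 37.4 in N2 and 336 in P4. The probes thus disagreed on the SC level, while P4, I2 and N2 were the 3 highest lines by both.

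**Figure D2:**
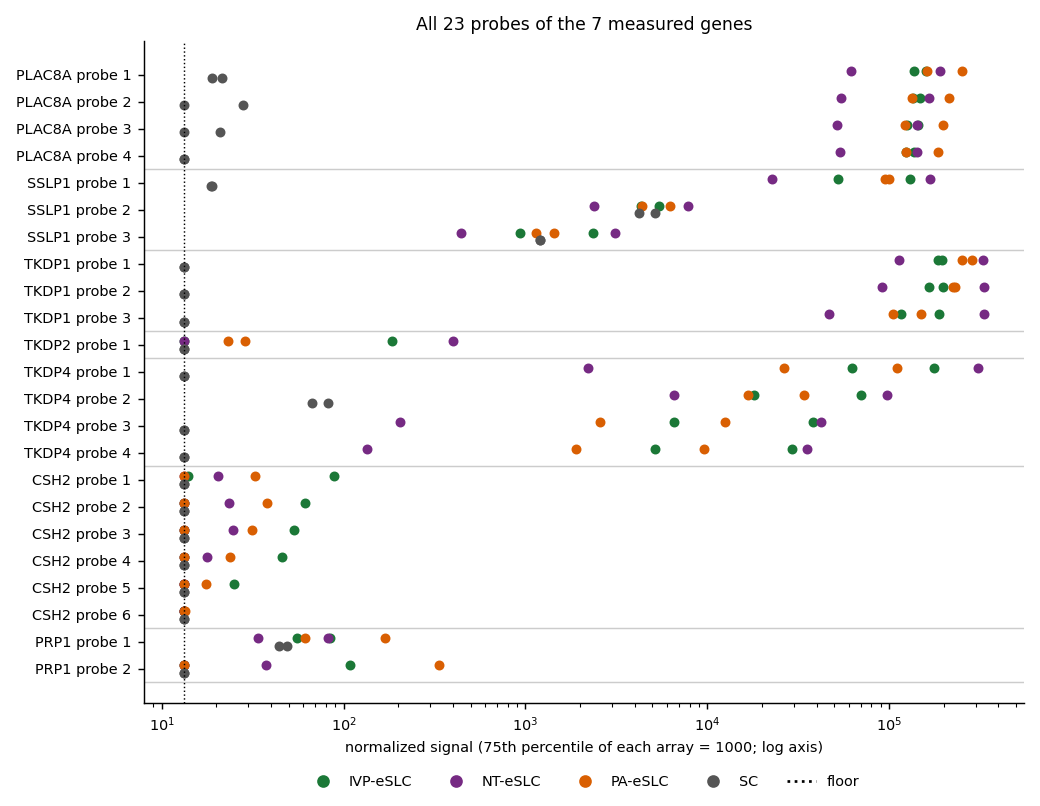
Normalized signal (log axis, 75th percentile of each array = 1000) of the 23 probes, numbered within each gene from brightest to dimmest, with eSLC lines in the upper row of each probe and SCs in the lower row. The SC points of SSLP1 probes 2 and 3 and of PRP1 probe 1 fall inside the range of the eSLC lines, and those of PLAC8A, TKDP1 and TKDP4 lie apart from it by every probe.

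Counted over the brightest probes, 4 of the 7 genes (PLAC8A, SSLP1, TKDP1 and TKDP4) had every eSLC array above both SC arrays, a pattern found in 34% of all genes tested. In 3 of them (PLAC8A, SSLP1 and TKDP1) the lowest eSLC array was over 1024-fold above the highest SC array, as for 10 genes or 0.0913% of those tested. Nothing is read from these shares, because this contrast chose the genes. TKDP1 and TKDP4 were not well above background on all 8 arrays, and with that filter the count was 2. Leaving out N7 gave 5, since both SC arrays read below every other line for PRP1.

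**Figure D3:**
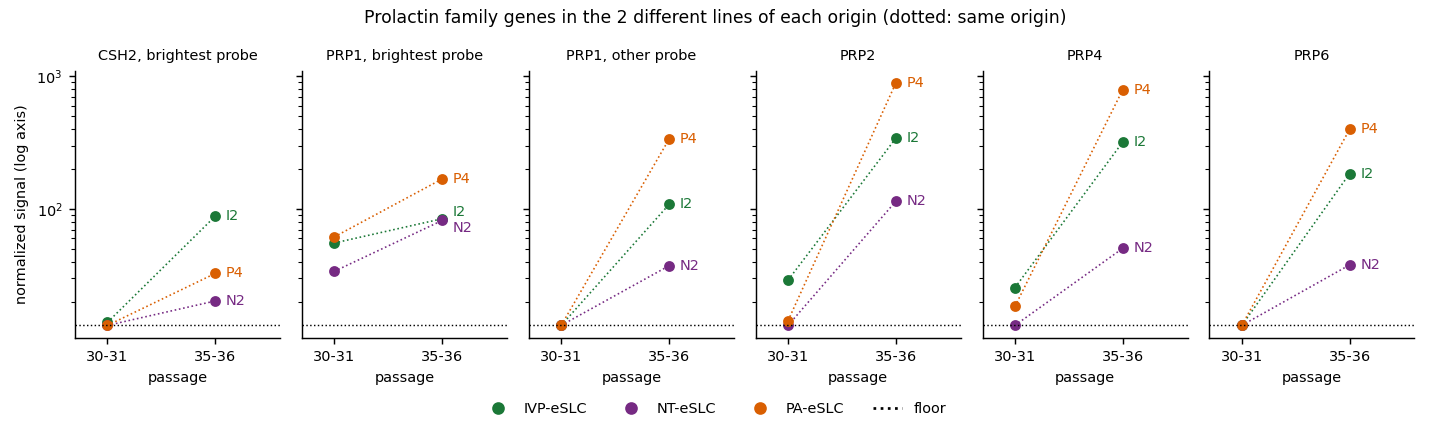
Normalized signal (log axis) of CSH2, both PRP1 probes, PRP2, PRP4 and PRP6 in the line of each origin at passage 30 or 31 (left) and in the other line of that origin at passage 35 or 36 (right), with dotted lines joining lines of 1 origin and a horizontal dotted line at the floor of 13.3. In each panel the point at the later passage is above that at the earlier passage for all 3 origins.

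Each origin has 1 line at passage 30 or 31 (I9, N7 and P1) and 1 at passage 35 or 36 (I2, N2 and P4), which allowed the later lines to be compared with the earlier ones, with origin as a covariate. CSH2 and PRP1, the 2 prolactin family genes of the set, were higher in the later line of all 3 origins. None of the other 5 genes was. Over all genes tested 660, or 6.02%, had this pattern. PRP1 was 1.52-fold higher in I2 than in I9, 2.42-fold higher in N2 than in N7 and 2.73-fold higher in P4 than in P1. The mean difference was 1.11 on the log2 scale (95% interval 0.37 to 1.85), and it was not called (unadjusted p = 0.017, adjusted p = 1, limma). For CSH2 it was 1.52 (95% interval -0.02 to 3.07) and not called either (unadjusted p = 0.0519, adjusted p = 1), with the earlier lines of NT and PA origin at the floor. The difference of CSH2 was 0.96 without I9 and 0.68 with a floor 2 times as high. Limma called 0 of the 10958 genes in this comparison, and 100 genes, or 0.913%, had an unadjusted p under 0.05.

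Of the 6 other prolactin-related genes with a probe, 4 (PRP2, PRP4, PRP6 and PRP14) read higher in the later line of each origin, while PRP3 was above the floor in P4 alone and PRP8 on no array. PRP2 read 343 in I2, 115 in N2 and 895 in P4 against 29.1 in I9, 13.3 in N7 and 14.4 in P1. PRP4 read 320, 50.6 and 794 in the later lines and 25.6, 13.3 and 18.5 in the earlier ones. PRP6 read 185, 37.9 and 399 in the later lines and was at the floor in the earlier ones. The mean differences were 4.21, 3.67 and 3.41 on the log2 scale, with unadjusted p of 0.00892, 0.019 and 0.0227 and adjusted p = 1 for each (limma). With the mean of the probes in place of the brightest the difference was 2.38 for PRP2, and 2.09 for PRP1 against 1.11. Of the 11 other family genes tested, these 3 had the later line above the earlier one in all origins. PRP14, which was not tested, was above the floor in the later lines alone, at 65.1, 18.5 and 172. These genes and PRP1 resemble each other in sequence and CSH2, PRP3 and PRL are neighbours in the ARS-UCD2.0 assembly, as are PRP1 and PRP6, so that their probes may share transcripts and are not separate observations.

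PRL itself was not higher in the later line of each origin. It read 103 in I2, 177 in I9, 322 in N2, 54.8 in N7, 110 in P1 and 24.8 in P4, with a passage difference of -0.13 (95% interval -3.63 to 3.38). It was at the floor in SCs and called higher in eSLCs, by 2.88 on the log2 scale (adjusted p = 0.0313, limma). Within slide 1 the later line was above the earlier ones by 0.96 for PRP1 and 2.70 for CSH2, and within slide 2 by 0.93 and 0.96. The passage is that of a single harvest of each line, and line and passage cannot be told apart. For the other 5 genes the passage difference was 0.41 for PLAC8A, 0.50 for SSLP1, 0.43 for TKDP1, 0.47 for TKDP2 and 2.56 for TKDP4. The interval of TKDP4 ran from -3.69 to 8.81 and its difference was -0.46 without N2, where another probe became its brightest, and 0.28 with the slide as a block.

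NT-, PA- and IVP-eSLCs were compared to see whether the origin of the embryo goes with the level of these products. No gene of the set was called between any of the 3 pairs of origins by limma, and none had an unadjusted p under 0.05. Over all genes tested the calls were likewise 0%, while 2.79% of genes had an unadjusted p under 0.05 between NT and IVP, 5.18% between PA and IVP and 9.96% between PA and NT. From IVP to NT the differences ran from -2.01 for TKDP4 (95% interval -7.39 to 3.36) to 0.55 for TKDP2 (95% interval -3.87 to 4.98). TKDP1 had the smallest, 0.02 (95% interval -1.15 to 1.18). The difference of TKDP2 was -1.90 without N2 and 3.01 without N7.

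Between PA- and IVP-eSLCs the differences ran from -0.97 for TKDP4 (95% interval -6.35 to 4.40) to 0.58 for PRP1 (95% interval -0.92 to 2.07). That of PRP1 was -0.15 without P4 and 1.30 without P1. The lowest adjusted p of the set was 0.893, for TKDP1. Between PA- and NT-eSLCs the differences ran from -1.49 for TKDP2 (95% interval -5.92 to 2.93) to 1.04 for TKDP4 (95% interval -4.34 to 6.42). The lowest adjusted p was 0.584 (limma), for PLAC8A, which was 0.89 higher in PA-eSLCs (95% interval -0.44 to 2.21). That difference of PLAC8A was 0.068 without N7 and 1.71 without N2. The difference of TKDP4 between PA and NT depended on single arrays. By the same probe it was 4.60 without N2, 0.0071 without P4 and -2.52 without N7. It was also below 0 with the slide as a block, at -0.74, with the processed signal, at -1.71, and with the series matrix values, at -0.995. The 95% intervals take in differences of more than 2-fold in either direction for 6 of the 7 genes between NT and IVP. IVP lay wholly on slide 1 and PA wholly on slide 2, so that their slides and origins can be separated only through the NT and SC arrays. With the slide as a block the difference of TKDP4 was -4.53 between PA and IVP, -3.79 between NT and IVP, and not called in either.

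**Figure D4:**
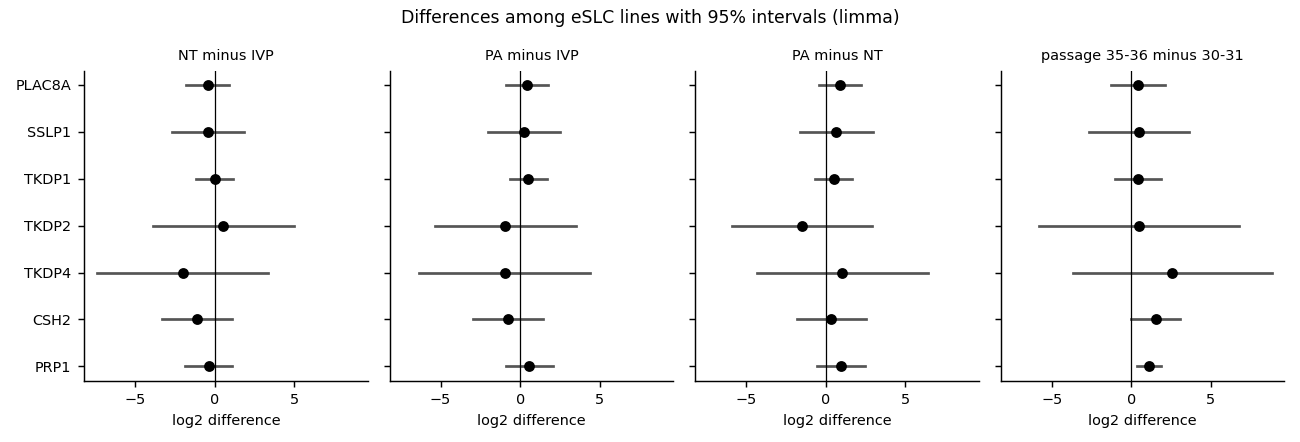
Log2 difference (point) and 95% interval (line) of the 7 genes between origins and between passages 35 to 36 and 30 to 31, from limma over the brightest probes. All intervals between origins include 0, those of TKDP2 and TKDP4 are the widest, and in the last panel the interval of PRP1 runs from 0.37 to 1.85.

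Lines of 1 origin could lie as far apart as any. N7 and N2, both of NT origin, were the lowest and the highest line for SSLP1, TKDP1 and TKDP4. The 75th percentile by which signals are divided was highest in N7 and lowest in N2. The part of this scaling in the order of N7 and N2 was not tested. N7 was the lowest eSLC array for 5 of the 7 genes (PLAC8A, SSLP1, TKDP1, TKDP4 and PRP1), as it was for 26.6% of all genes tested. N2 was the highest for 4 of 7 (SSLP1, TKDP1, TKDP2 and TKDP4), as for 14.9% of all genes. A range of at least 4-fold among the lines was found for 6 of the 7 genes, all but TKDP1, and for 14.3% of all genes tested. This count is over the brightest probes and differs by probe. PLAC8A reached 4.08-fold by its brightest probe and 3.47-fold to 3.93-fold by the other 3, while TKDP1 varied 7.15-fold by its dimmest probe. Without N7 the range was 1.84-fold for PLAC8A, 3.22-fold for SSLP1 and 3.04-fold for PRP1.

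For the 6 genes with a range of at least 4-fold, which leaves out TKDP1, the genes most like each across the 6 eSLC arrays were those with the smallest root mean square difference of log2 signals, each gene centred on its own mean. For SSLP1 they were PAG2, IGFBP6 and IL27RA, at 0.17, 0.21 and 0.21. PAG2, a pregnancy-associated glycoprotein of the trophoblast, read 38028 in N7 to 274766 in N2 and was at the floor in SCs, whereas IGFBP6 and IL27RA were higher in SCs than in any eSLC line. For PLAC8A the nearest were CELF4, NPDC1 and CD81, at 0.12, 0.14 and 0.14. For TKDP2 they were VIPR2, TM4SF1 and BHLHE41, at 0.34, 0.36 and 0.43, each highest in N2 and next in I9.

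For TKDP4 the nearest genes were SOCS3, CSTA and GABRP, at 0.70, 0.81 and 0.82, a looser match to a wider range. SOCS3, an inhibitor of cytokine signaling, read 247 in I2, 495 in I9, 1804 in N2, 21.6 in N7, 260 in P1 and 985 in P4. N2 was its highest line and N7 its lowest, as for TKDP4. For CSH2 the nearest were CPLX1, ULBP27 and KCNJ12, at 0.48, 0.51 and 0.53, and for PRP1 GLT6D1, BCAP31 and ESM1, at 0.26, 0.30 and 0.30. For each, 9871 or 9872 genes were searched, over 6 arrays, and the matches are descriptions.

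Of 18 transcription factors tested that act on trophoblast genes, 7 were called higher in eSLCs than in SCs, 1 lower and 10 not called, beside 19.7% higher and 15.7% lower over all genes. GATA3 read 17104 in N7 to 35339 in I9 against 39.5 and 25.0 in SCs, a difference of 9.76 on the log2 scale (adjusted p = 1.25e-05, limma). CDX2, the trophectoderm factor, was 9.40 higher (adjusted p = 7.67e-06), ASCL2 8.84 higher (adjusted p = 9.30e-05) and ELF5 6.72 higher (adjusted p = 5.90e-05). For CDX2, ASCL2 and ELF5 both SC arrays were at the floor, so these differences are taken from the floor. N7, lowest for most of the secreted products, was not lowest for CDX2, at 6567 against 5183 in I9, nor for ASCL2, at 7935 against 2490 in N2. ETS2, a known activator of interferon tau, was 0.41 higher and not called (adjusted p = 0.144). Enzymes of steroid synthesis and estrogen sulfation that the trophoblast also makes were called higher for 5 of 5 genes tested, led by HSD3B1 at 8.80 (adjusted p = 8.40e-06) and CYP11A1 at 8.48 (adjusted p = 0.00012).

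Of 14 receptors and relays tested through which interferons and prolactin-like hormones act, 9 were called lower in eSLCs, 1 higher and 4 not called, beside 15.7% lower and 19.7% higher over all genes. Their median log2 difference was -1.36 against 0.23 over all genes. SOCS3 (4.52), CISH (0.92), GHR (0.65) and SOCS2 (0.09) had positive differences that were not called. STAT3 had a log2 difference of -6.72 (adjusted p = 0.000113, limma), from 2853 and 2799 in SCs to 17.5 to 77.0 in eSLCs. IFNAR2, a chain of the type I interferon receptor, fell by 5.76 (adjusted p = 0.00648) and was at the floor in I2 and N7. STAT5B, which relays prolactin signals, fell by 4.28 (adjusted p = 0.0226) and JAK1 fell by 2.14 (adjusted p = 0.000408). TYK2, a kinase of the interferon receptor, was the gene called higher, by 2.01 (adjusted p = 0.00249). PRLR, the prolactin receptor, was not tested because it was not well above background on both arrays of any group.

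Markers were set beside these values to check the cells behind them. Their signals were summed over each list, so that the brightest probes weigh most in a sum, and sums are compared between arrays for 1 list at a time. All 8 trophectoderm markers tested were called higher in eSLCs, and their summed signal was 415588 in N7 to 1063904 in P1 against 8040 and 8565 in SCs, while EOMES was not well above background in any eSLC line. Of 10 fibroblast markers 9 were called lower in eSLCs, with summed signals of 5474 to 10676 against 652942 and 809523 in SCs. Of 7 epiblast markers tested 2 (SALL4 and LIN28A) were called higher and 2 (SOX2 and KLF4) lower, where all genes gave 19.7% and 15.7%. The summed signal was 1846 to 3665 in eSLCs against 3841 and 4395 in SCs. KLF4 alone made up most of the SC sums, at 3852 in SC P5 and 3196 in SC P10 against 564 to 990 in eSLCs. POU5F1 was 898 in N7 and 30.7 to 101 in the other lines.

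N7 differed from the other lines in some hypoblast markers. The summed signal of the list was 128664 in N7, against 3679 to 8930 in the other 5 lines and 15360 and 17576 in SCs. HNF4A read 9022 in N7 and at most 23.4 on any other array, and GATA4 read 2918 in N7 and at most 180 elsewhere. APOA1, which made up most of the sum in N7, read 112600 in N7, 1097 to 6823 in the other lines and 5685 and 4892 in SCs. PDGFRA read 1422 in N7 and 42.6 to 276 in the other lines, but was higher still in SCs, at 5575 and 5155. SOX17, at 2664 in N7, was within the 1908 to 2946 of the other lines, and AFP and TTR were lower in N7 than in any other line, at 15.9 and 22.2. None of the 7 hypoblast markers tested was called higher in eSLCs and 2 were called lower, where all genes gave 19.7% and 15.7%. Among the eSLC lines, then, N7 had the highest HNF4A, GATA4, APOA1, PDGFRA and interferon signals beside the lowest TKDP4, TKDP1, SSLP1 and PLAC8A. The part of other cell types in those values was not tested.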

How the data were processed

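Cy3-labelled cRNA of 6 eSLC and 2 SC samples was measured on 8 Agilent bovine arrays. The authors scanned them with Feature Extraction 11.5.1.1 and deposited the signal intensity of each spot without normalization between arrays, and a series matrix of intensities normalized in GeneSpring GX. The background-subtracted intensity, as deposited, was used, because the processed signal was out of step with it in 6 of the 8 files. Control spots and 1 to 11 outlier spots per array were left out, spots of a probe averaged, arrays divided by their 75th percentile, raised to the floor of 13.3 and taken to log2. Accessions matched the RefSeq table (ARS-UCD2.0) for 26743 probes. The annotation of the array used another assembly, so no coordinates are given. Each gene was represented by its probe with the highest mean log2 signal.

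Genes well above background on both arrays of at least 1 group were tested with limma 3.58.1 in R 4.3.3 (lmFit, eBayes, 4 group means, 8 arrays in 1 fit, and for passage the 6 eSLC arrays with origin), Benjamini-Hochberg adjusted over 10958 genes. The procedure was tested on simulated data. The number of arrays, 2 per group, limits the precision. The members and gene lists were chosen with earlier results of these data known. Of each list, up to 4 called genes with the largest differences are named, beside genes singled out after their values were seen (ISG15, MX1, ETS2, PRLR, POU5F1, TYK2, SOCS3, CISH, GHR, SOCS2 and the hypoblast markers). Alternatives covered scaling, signal column, background correction, floor, filter, probes, slide, SC arrays, test and leaving out each array. Figures were drawn with matplotlib 3.10.9 in Python 3.11.15.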

Additional observations from a re-analysis of the deposited data

Results flagged for a closer look

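PRP3, a prolactin-related gene beside CSH2, was at the floor in 5 of the 6 eSLC lines and read 62.6 in P4. Its highest line was separated from the nearest other by a share of 1 of the whole range, above the 95% critical value of Dixon for 6 samples. Such a gap arises by chance in about 1 of 20 groups, and with 5 values at the floor it says only that P4 alone was measured.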

How the results depend on the processing

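No paired analysis was possible because the labels call every sample replicate 1 and so give no replicate numbers that pair samples across groups. The lines of 1 origin were compared with origin as a covariate. The count of secreted-product genes called was 0 between origins and between passages under each alternative run. Genes with every eSLC array above both SC arrays numbered 4, and 3 with the processed signal. They numbered 2 when only genes well above background on all 8 arrays were tested, and 4 to 5 when 1 array was left out. The genes of the 5 lists without cell type markers called between eSLCs and SCs numbered 31, 11 with the processed signal, and 20 to 33 when 1 array was left out, the lowest without SC P5. Normexp correction used the median signal, an alternative chosen after seeing the data.

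The difference of TKDP4 between NT and IVP, -2.01, was 1.40 with the processed signal, 1.03 with the series matrix values, and -2.44 to 1.54 when 1 array was left out (0.48 without I9 and 1.54 without N7). Between PA and IVP it was 0.032 with the series matrix values and -1.56 to 0.39 when 1 array was left out (0.39 without I9), and between passages -0.46 to 2.45 (-0.46 without N2). Between PA and NT, 1.04 became -1.71 with the processed signal, -0.995 with the series matrix values, -0.74 with the slide as a block and -2.52 to 1.86 when 1 array was left out. With the slide as a block TKDP2 was -2.72 between PA and NT, against -1.49. Leaving out I2, I9, N2, P1 or P4 made another TKDP4 probe the brightest, which enters the TKDP4 values without those arrays. Without N7 the probe was unchanged. The change of probe brought the eSLC minus SC difference of TKDP4, 11.96, to between 7.91 and 8.89. A comparison with the probe kept was chosen after seeing the data. In it TKDP4 without I9 was -1.27 between NT and IVP and -0.23 between PA and IVP, both in the direction of all arrays. Between PA and IVP it was 0.058 without P1 and -2.01 without P4. Without N2 it was -5.57 between NT and IVP and 4.60 between PA and NT, outside the ranges above. CSH2 also changed probe without I2. The difference of PLAC8A between eSLCs and SCs, 12.84, was 2.31 with the processed signal. TKDP2 differed by 0.96 between PA and NT without N2, within a range of -3.95 to 0.96, and by -1.73 between eSLCs and SCs with the processed signal. The cause was not tested for the other reversals. The processed signal had a rank correlation of 0.97 with the background-subtracted one in I2 and N2. In the other 6 of the 8 files it was 0.16 to 0.22. Values with the processed signal therefore do not show how far a result holds.

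Over all genes, calls between NT and IVP rose from 0 to 110 with the series matrix values, 151 without N2 and 5 without I9, fits in which N7 or I2 alone stands for its origin and is assumed to vary like the other groups. Between PA and NT they rose to 94 with the series matrix, 149 without N2 and at most 3 without another array, and between PA and IVP to at most 3. Calls between eSLCs and SCs numbered 3874, 412 with the processed signal, 2468 with the SC arrays as 1 sample and 2362 without SC P5. Low signals limit CSH2, PRP1 and TKDP2, which lie near the floor.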
